A study of Arabidopsis thaliana with 15 samples.

Results

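The 107 probe sets described here, each made to measure the transcript of a gene, had their highest signal, among 4 populations of sorted Arabidopsis thaliana cells, in the FILp cells. FILp carries the name of FILAMENTOUS FLOWER, a YABBY transcription factor gene of young lateral organs. They were chosen from 22746 probe sets, with 64 control probe sets set aside. Signals under 20 were first raised to 20, and the geometric mean of each group was taken. A probe set was kept where the FILp mean was at least 2 times the mean of each of the CLV3n, CLV3p and WUSp cells and every FILp array stood at 100 or more. YAB3, YAB5, ROXY1, WAG2, IAA20 and GH3.17 were left out by name, of which 3 (YAB3, YAB5 and ROXY1) met the limits.

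The series measured total RNA of plants aged 24 days on 15 arrays, 1 for each sample. There were 3 arrays for each of CLV3p, CLV3n and FILp, but 2 for WUSp. The sorted groups are named after CLV3, a peptide signal gene of shoot stem cells, WUS, a homeodomain gene of the organizing centre beneath them, and FIL. The design text says that the CLV3p cell type is missing from CLV3n. The remaining groups are Protoplast_induced (2 arrays) and Uninduced (2 arrays), taken here as material with and without the preparation of protoplasts, cells freed of their walls. The labels name no genotype, strain, reporter construct or sorting gate for any group, and no treatment beyond these group names. Nothing in them tells if replicates were grown or sorted apart, and a p-value here reflects only how these samples spread, which may be technical.

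Lateral organs arise on the flanks of the shoot apical meristem, where cells leave the stem cell pool and are recruited into primordia. YABBY genes such as FIL, YAB3 and YAB5 are known for their activity on the outer (abaxial) side of these primordia and for the absence of that activity from the stem cells. Auxin marks the sites of initiation, and boundary genes separate the new organ from the meristem. In sorted bulk cells, fewer cells of a type and less RNA per cell cannot be told apart.

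The label of the FILp group was set against markers. FIL itself, WUS and STM were not analysed here, since the probe table names no probe set for them. YAB3 and YAB5 had mean signals of 396.5 and 449.8 in FILp, against 166 and 144 in CLV3n, 34.9 and 20 in CLV3p and 33.5 and 24.9 in WUSp. CLV3 had at most 6.02 on the FILp arrays and averaged 876 in CLV3p. Summed over 4 markers of mesophyll (RCA, PRK, LHCB4.1 and PORB), the signal ran from 4668 to 7522 on the FILp arrays, from 4656 to 5535 in CLV3n, from 1661 to 2108 in CLV3p and from 6829 to 7836 in WUSp. Of the epidermal markers, ACR4 and FDH have a named probe set and ATML1, PDF1 and PDF2 have none. ACR4 and FDH summed to 1254 to 1591 in FILp, against 776 to 1093 in CLV3n, 640.2 to 815 in CLV3p and 694 to 853 in WUSp. They did not move alike, since ACR4 averaged 552 in FILp and 624 in CLV3p while FDH averaged 876 and 71.9, and their part in the peak of the members was not tested. Of the stomatal and trichome markers 1 of 6 was named, FAMA, a gene of guard cell formation, with 42.9 to 64.8 in FILp and 58.4 to 93.4 in CLV3n. Array medians lay between 155 and 199. The hybridisation control bioC split the arrays, with signals of 216 to 313 on the FILp arrays, CLV3n 3 and CLV3p 3 and of 643 to 1070.4 on the other 10 arrays. As a measure of RNA quality, the actin 3'/5' ratio stood highest on CLV3n 1, at log2 4.203, and on CLV3p 1, at 3.78, while the remaining sorted arrays lay between 2.14 and 2.98.

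The probe table gives 1 gene for 42 of the 107 members, several for 2 and none for the other 63, which are called by their probe set number. Of the 42 genes, 7 carry a symbol and 35 only a locus number, for which no role is given. These values chose the members, so that they are a description without a test. FILp means ran from 116 to 17661 with a median of 535, and 36 members reached 1000. The ratio of FILp to the highest of the other populations had a median of 2.53 and a maximum of 9.86. It was at least 3 for 34 members and at least 4 for 13. All 3 FILp arrays lay above all 8 other sorted arrays for 102 members, where 2.85% of all probe sets did so, a count that the rule itself favours. The exceptions were 258158_at, 246972_s_at, AT4G25780, AT4G26280 and 266996_at. The median SD over the FILp arrays was 0.22 on the log2 scale. Just inside the limit were 266996_at, AT1G59960 and 265345_at, with ratios of 2.007, 2.01 and 2.02. AT2G46250, the homeodomain gene HAT2 and 267528_at, at 1.99 each, were just outside.

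**Figure D1:**
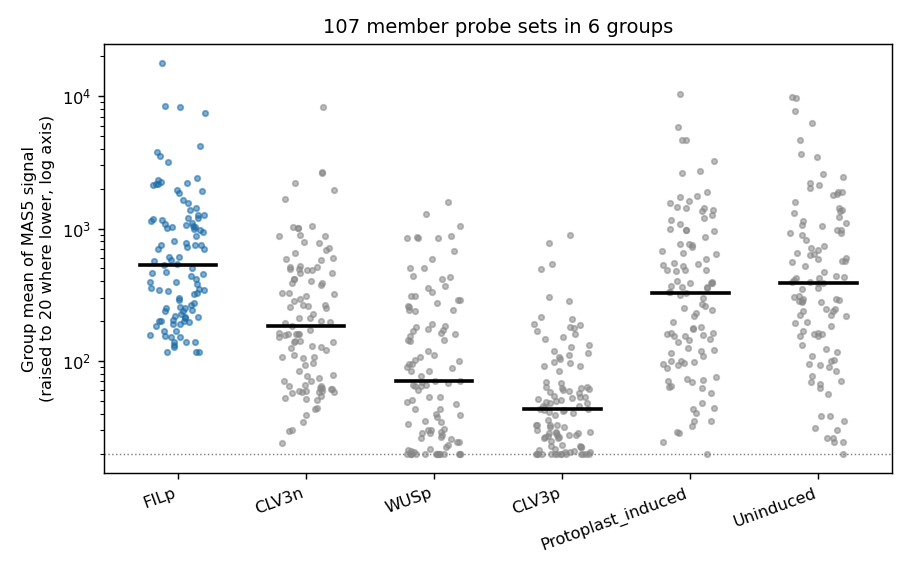
Mean MAS5 signal of each of the 107 members in the 6 groups, with signals raised to 20 where lower, on a log axis. Each point is 1 probe set, the bar is the median and the dotted line the floor of 20. The medians are 535 in FILp, 184 in CLV3n, 70.2 in WUSp, 43.2 in CLV3p, 327 in Protoplast_induced and 385 in Uninduced. The height of FILp was set by the choice of members.

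Signalling and transcription are represented by 3 members with a symbol. CLE27 encodes a small peptide of the CLE family, to which CLV3 also belongs. Its signals were 111, 141 and 103 in FILp, 26.8, 89.3 and 79.2 in CLV3n, 17.1, 22.9 and 4.37 in CLV3p and 2.56 and 38.6 in WUSp. The FILp arrays stood above the rest, but by little over CLV3n. JKD (JACKDAW) encodes a zinc-finger transcription factor known from tissue patterning in roots. It had 207, 260.3 and 266 in FILp, 41.8, 65.3 and 73.7 in CLV3n, 8.79, 5.57 and 4.44 in CLV3p and 21.2 and 5.89 in WUSp. Its ratio of 4.15 was the second among members with 1 gene, and its level in CLV3p lay below the floor on every array. EEL encodes a bZIP transcription factor known from embryo gene expression in seeds. It had 557, 634 and 549.6 in FILp, 199, 317 and 291 in CLV3n, 139.8, 142 and 82.5 in CLV3p and 253 and 295 in WUSp. EEL was thus present in all populations, with CLV3n and WUSp overlapping and CLV3p below both.

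Metabolism and transport supply the other 4. CYP71B22 encodes a cytochrome P450, an enzyme class that oxidises small molecules. Its signals were 549.6, 385 and 482 in FILp, 155, 163 and 106 in CLV3n, 14.7, 41.2 and 23.1 in CLV3p and 20.2 and 32.7 in WUSp. The 3 levels of FILp, CLV3n and the pair of CLV3p and WUSp were separate, and CLV3p and WUSp overlapped. ALDH3F1 encodes an aldehyde dehydrogenase. It had 1218, 1098 and 1274 in FILp, 465, 535 and 404 in CLV3n, 193, 255 and 183 in CLV3p and 91.3 and 87.1 in WUSp, so that the 4 populations formed 4 steps with no overlap. GSTU27 encodes a glutathione transferase of the tau class, which couples glutathione to reactive compounds. It had 715, 629 and 845 in FILp, 337, 262 and 262 in CLV3n, 133, 54.9 and 82.6 in CLV3p and 407 and 307 in WUSp, with WUSp the highest of the other populations. CHX20 encodes a cation/proton exchanger known from guard cells. It had 172, 116 and 132 in FILp, 82.3, 94.2 and 27 in CLV3n, 26.5, 60.7 and 51.8 in CLV3p and 46.7 and 26.1 in WUSp. Apart from FILp, its populations overlapped.

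Among the loci without a symbol, AT4G10910 had the largest ratio, 9.86. Its signals were 160.1, 323 and 478 in FILp, 47.7, 2.62 and 27 in CLV3n, 4.13, 4.35 and 3.21 in CLV3p and 13.2 and 8.85 in WUSp. The FILp arrays themselves spread widely (SD 0.80 on the log2 scale), and outside FILp no sorted array reached 50. AT2G34320 followed with a ratio of 4.13, and its FILp signals were 158, 175 and 246. AT2G20100, AT1G71870, AT1G62500, AT2G19650 and AT1G64490 had ratios of 3.54, 3.37, 3.36, 3.18 and 3.04. AT2G20100 has another probe set, 265578_at, with means of 39.6 in FILp and 27.8 in CLV3n, which did not reach 100 in FILp. Signals also depend on the probes, and the brightest member was AT5G44630, with 17407, 17470.0 and 18115 in FILp, 10483, 8388 and 6439 in CLV3n, 199, 164 and 174 in CLV3p and 1112 and 2240.3 in WUSp. It was far from silent in CLV3n, and its ratio of 2.13 was near the limit of 2. AT1G62500 had 6822, 7401 and 8223 in FILp, 1960.3, 2933 and 1899 in CLV3n, 64.8, 58.8 and 65.4 in CLV3p and 806 and 566 in WUSp, 4 levels with no overlap.

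Among the 63 members with no gene in the table, 250509_at had the largest ratio, 7.75, with 415, 503 and 449 in FILp, 37.8, 108 and 49.1 in CLV3n and at most 20 as mean in CLV3p and WUSp. Next came 251394_at and 265560_at, with ratios of 5.56 and 5.13. The bright 249012_at had 7687, 8182 and 9525 in FILp, 2268, 4226 and 2009.9 in CLV3n, 57.3, 56 and 102 in CLV3p and 1359 and 1232 in WUSp. The probe set 245138_at had 8547, 7648 and 8737 in FILp, 2532, 2617 and 2751 in CLV3n, 67.6, 27.3 and 40.9 in CLV3p and 130.3 and 215 in WUSp. In both, the FILp, CLV3n, WUSp and CLV3p arrays formed 4 steps with no overlap. The probe set 266369_at went from 3211 in FILp to 795 in CLV3n, 65.2 in WUSp and 28.6 in CLV3p.

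**Figure D2:**
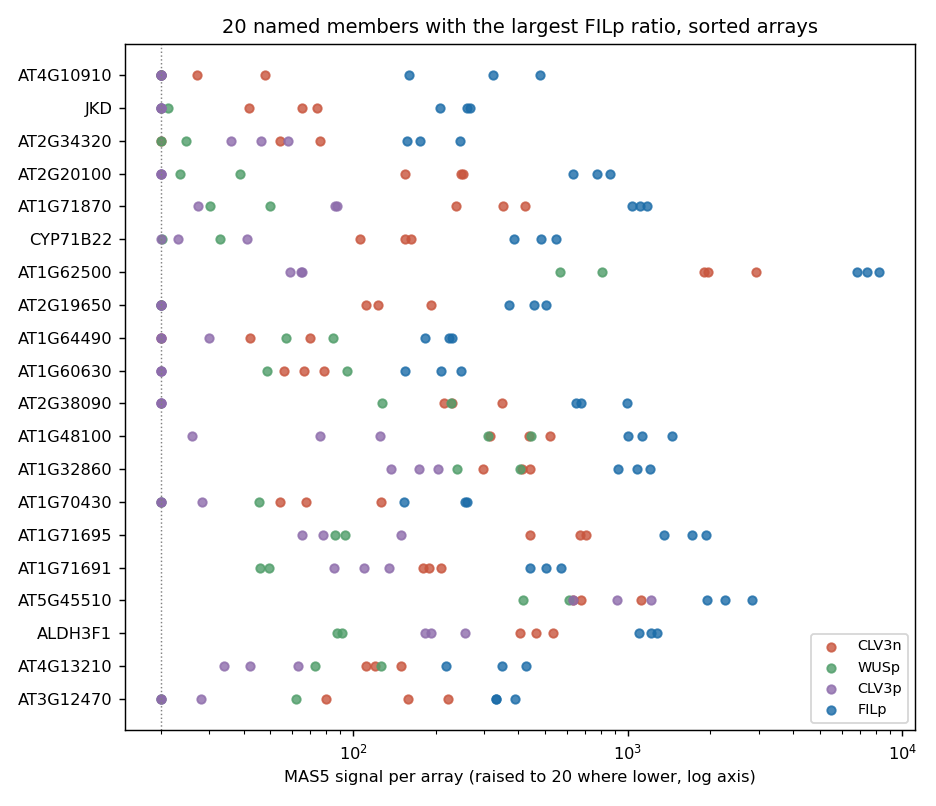
Signals on each of the 11 arrays of sorted cells, raised to 20 where lower, on a log axis, for the 20 members with 1 gene and the largest ratio of FILp to the highest other population. Each point is 1 array and the dotted line is the floor of 20. In these 20 rows every FILp point lies to the right of the other arrays, and CLV3p points are most often at or near the floor.

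Members differed in how far the other populations fell below. CLV3n was the highest of them for 91 members, WUSp for 10 and CLV3p for 6. The 10 with WUSp include EEL, GSTU27, AT1G65900, AT5G13140 and AT5G19730, and the 6 with CLV3p include AT2G34320, AT5G45510 and AT1G59960. CLV3p was the lowest for 66, WUSp for 32 and CLV3n for 1, and 8 had a tie at the floor. No other population reached a mean of 100 for 32 members, among them JKD, CLE27, CHX20 and AT4G10910. A single one reached 100 for 28 members, such as CYP71B22, 2 of them for 28 more, such as ALDH3F1 and GSTU27, and all 3 for 19, such as EEL and AT5G44630. The mean was at the floor of 20 for 14 members in CLV3p, for 15 in WUSp and for 0 in CLV3n. The median ratio of FILp was 2.57 over CLV3n, 6.52 over WUSp and 9.47 over CLV3p.

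All FILp arrays had a low bioC signal, and no WUSp array did, so that for FILp against WUSp the bioC class and the population cannot be told apart. With only the arrays of low bioC signal, FILp exceeded CLV3n 3 and CLV3p 3 for all 107 members, by at least 2-fold for 86 and 104 of them. The median log2 difference was 1.42 over CLV3n 3 and 3.32 over CLV3p 3, against 1.36 and 3.24 over all arrays. These are again values that the choice of members fixed in part.

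The rule bounded the means of CLV3n, CLV3p and WUSp by the same upper limit and did not choose members by the differences between them. These were fitted on log2 signals without the floor, from arrays that also entered the rule, so that the counts describe the chosen members. CLV3n was higher than CLV3p for 77 of the 107 members and lower for 0, by limma's moderated test (adjusted p under 0.05). Of all 15052 probe sets tested, 8.95% were higher and 4.88% lower in CLV3n. At an unadjusted p under 0.05, 84 members passed. The share of all probe sets at an unadjusted p was not counted, so that such counts, here and below, have no base beside them. All members passed the filter on low signals, the 40th percentile of each array, since FILp arrays count in it. For 17 members no CLV3n or CLV3p array rose above that limit, and 6 of the 77 calls, JKD and AT1G60630 among them, are of this kind. Among the other 90, 71 were higher in CLV3n and 0 lower. Of the 77, 73 differed by at least 2-fold. The median log2 difference over the members was 2.30 (1.64 with signals raised to 20), against -0.02 over all probe sets tested. The arrays of the populations did not overlap, with CLV3n above, for 80 members, where 13.7% of all probe sets did so, and with CLV3p above for 0 members (9.19%). For 37 of the 77, only CLV3n arrays rose above the limit of the filter, and every CLV3p signal lay at or below it.

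AT5G44630 had the largest of these differences among the named genes, 5.54 ± 0.23 (SE; adjusted p = 7.56e-10), followed by AT5G13140, AT1G62500, AT2G38090 and AT1G10640 with 5.33, 5.14, 4.86 and 4.58. With signals raised to 20, AT5G13140 and AT2G38090 had 4.34 and 3.69, since their CLV3p signals of 6.01, 8.57 and 21.9 and 12.4, 6.04 and 9.31 lie mostly under the floor. JKD had a fitted difference of 3.28, or 1.55 with the floor, but none of its CLV3n or CLV3p arrays rose above the limit of the filter. CYP71B22, GSTU27, EEL and ALDH3F1 were also higher in CLV3n, by 2.53 ± 0.39 (SE; adjusted p = 0.000362), 1.76 ± 0.27 (SE; adjusted p = 0.000359), 1.16 ± 0.24 (SE; adjusted p = 0.00405) and 1.16 ± 0.19 (SE; adjusted p = 0.00048). CLE27 and CHX20 had 2.26 ± 0.94 (SE; adjusted p = 0.133) and 0.44 ± 0.52 (SE; adjusted p = 0.643) and did not pass. Of the 30 members that did not pass, 22 had a CLV3n mean under 100, as did 33 of all 107.

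The markers of mesophyll moved with this result, but not with that between CLV3n and WUSp below. Their sum was lower on every CLV3p array (1661 to 2108) than on any CLV3n array (4656 to 5535), and their part in the result was not tested. The FILp markers YAB3 and YAB5 summed to 275 to 340 in CLV3n, 21.4 to 84.1 in CLV3p and 53.7 to 55.4 in WUSp. The part of these 2 genes was not tested either. With the bioC class as a block, 79 members were higher in CLV3n and 0 lower. Calls rose over all probe sets too, to 1607 of 15052 higher in CLV3n from 1347 in the main fit. Within the arrays of high bioC signal the median log2 difference with the floor was 1.73, with 100 members higher and 7 lower. Within the single pair of low bioC signal it was 1.83, with 100 higher and 6 lower. Without CLV3n 1 and CLV3p 1, the arrays with the highest actin ratio, 76 members were called higher and 0 lower. Of all 14827 probe sets tested there, 1132 were higher and 513 lower. Centring each array on its median shifted the median difference of all tested probe sets from -0.02 to -0.19 and turned the split of calls over all probe sets from 64.7% to 40.2% higher in CLV3n, while 73 members stayed higher and 0 were lower.

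**Figure D3:**
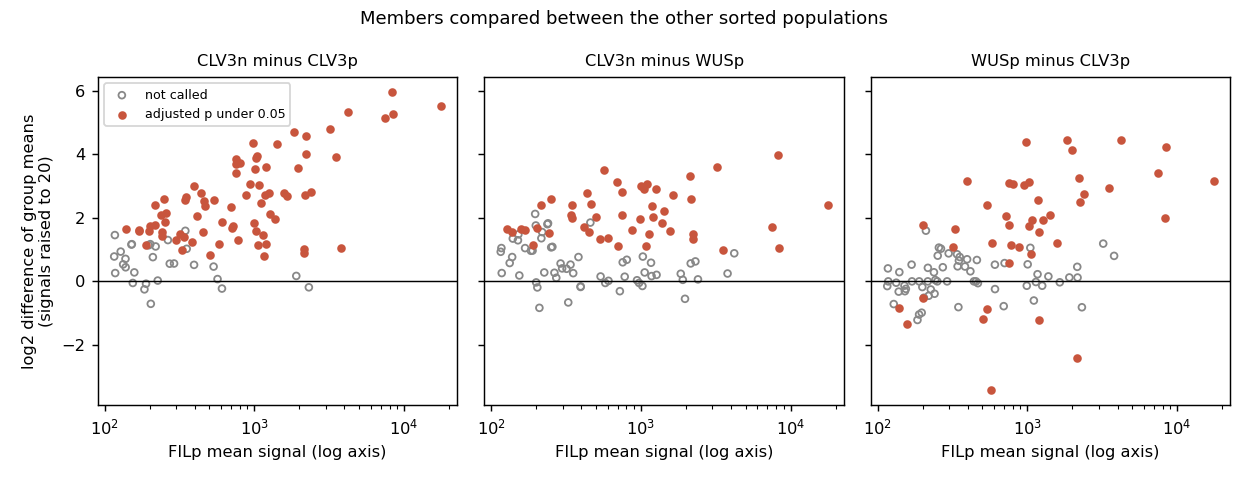
Log2 difference of group means, with signals raised to 20, for the 107 members in the 3 comparisons among CLV3n, WUSp and CLV3p, plotted against the FILp mean signal on a log axis. Filled points had an adjusted p under 0.05 by limma on signals without the floor. In the first panel 77 members are called, all above 0, in the second 48, all above 0, and in the third 35 above and 8 below.

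Between CLV3n and WUSp fewer members passed, again with CLV3n as the higher population. CLV3n was higher for 48 of the 107 members, where 10.8% of all probe sets tested were, and lower for 0 (8.33%), with a median log2 difference of 1.48 (1.13 with the floor), and 60 passed at an unadjusted p. For 15 members no array of either population rose above the limit of the filter, and 4 of the calls, JKD among them, are of this kind. The other 92 had 44 higher in CLV3n and 0 lower. For 19 of the 48, only CLV3n arrays rose above the limit of the filter, and every WUSp signal lay at or below it. The largest among the named genes were AT2G19650, AT1G71870, AT2G20100 and AT3G12470. AT1G71870 had means of 328 and 38.8 and a difference of 3.08 ± 0.43 (SE; adjusted p = 0.000266). AT2G19650 and AT2G20100 had 3.11 ± 0.48 (SE; adjusted p = 0.000494) and 2.82 ± 0.37 (SE; adjusted p = 0.000117). Signals in WUSp were 17.5 and 14.8 for AT2G19650 and 6.93 and 61.8 for AT3G12470. The sizes of their differences thus depend on signals near background. AT3G12470, at 2.77 ± 0.89 (SE; adjusted p = 0.0429), lost its call under 8 alternatives, among them without CLV3n 2, CLV3n 3 or WUSp 1 (2.44, 2.68 and 1.19). ALDH3F1 and CYP71B22 were higher in CLV3n by 2.38 ± 0.21 (SE; adjusted p = 2.49e-06) and 2.43 ± 0.44 (SE; adjusted p = 0.00158). EEL and GSTU27 had -0.05 ± 0.27 (SE; adjusted p = 0.917) and -0.31 ± 0.31 (SE; adjusted p = 0.509) and did not pass. With quantile normalization 43 members were higher and 1 was lower, where 1384 and 1299 of all 15052 probe sets were. With the bioC class as a block, 52 members were higher in CLV3n. Calls rose over all probe sets too, to 2201 of 15052 higher in CLV3n from 1629 in the main fit. The mesophyll markers went the other way, with sums of 6829 to 7836 in WUSp and 4656 to 5535 in CLV3n. Their part in the result was not tested. Centring turned the split of calls over all probe sets from 56.5% to 38.6% higher in CLV3n, while 47 members stayed higher and 0 were lower.

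Between WUSp and CLV3p more members were higher in WUSp, and the share that was lower (7.48%) did not exceed that of all probe sets. WUSp was higher for 35 of the 107, where 12.4% of all probe sets tested were, and lower for 8 (11.7%). The 107 members had a median log2 difference of 0.88 (0.47 with the floor), and 59 passed at an unadjusted p. For 42 members no array of either population rose above the limit of the filter, and 2 of the higher and 3 of the lower calls (AT1G72840, 264626_at and 262886_at) are of this kind. The other 65 had 33 higher in WUSp and 5 lower. For 16 of the calls, only WUSp arrays rose above the limit of the filter, and every CLV3p signal lay at or below it. AT5G13140 had signals of 532 and 353 in WUSp and 6.01, 8.57 and 21.9 in CLV3p, a difference of 5.38 ± 0.40 (SE; adjusted p = 2.92e-07), or 4.39 with the floor. With the floor, AT1G65900, AT5G19730, AT2G38090 and AT1G60630 had 4.13, 3.15, 3.09 and 1.76. No CLV3p array of these 5 genes rose above the limit of the filter, so that the sizes depend on signals near background. GSTU27 and EEL were higher in WUSp, at 2.06 ± 0.31 (SE; adjusted p = 0.000177) and 1.21 ± 0.27 (SE; adjusted p = 0.0046). The 8 that were lower in WUSp include ALDH3F1, AT1G71691 and AT5G45480, at -1.22 ± 0.21 (SE; adjusted p = 0.000606), -1.18 ± 0.26 (SE; adjusted p = 0.00387) and -0.86 ± 0.22 (SE; adjusted p = 0.00983), and AT1G72840, at -2.05 ± 0.67 (SE; adjusted p = 0.0376) or -1.35 with the floor. The call of AT1G72840 ended with the floor, and also without CLV3p 1, CLV3p 2 or WUSp 2 (-1.99, -1.87 and -1.29). That of AT5G45480 ended without WUSp 1 (-0.65). The mesophyll markers were higher in WUSp (6829 to 7836 in sum) than in CLV3p (1661 to 2108), and their part in this result was not tested.

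The comparisons above share populations, so that they are not independent of each other. Set side by side, the 7 genes with a symbol fall into different orders. CYP71B22 had CLV3n above WUSp and CLV3p, and the difference between WUSp and CLV3p did not pass (0.09, adjusted p = 0.903). JKD is given no order, since none of its arrays in these 3 populations rose above the limit of the filter. EEL and GSTU27 had CLV3n and WUSp above CLV3p. ALDH3F1 had CLV3n above CLV3p and CLV3p above WUSp. None of the 3 differences passed for CLE27 or CHX20.

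Protoplast_induced and Uninduced are arrays that the rule did not use, and their comparison asks whether the preparation of protoplasts moves the members. Of the 107 members 90 passed the filter on low signals in these 4 arrays, 2 of them through Uninduced alone. Of these 90, 36 were lower and 2 higher in Protoplast_induced (limma, adjusted p under 0.05), where 11.4% and 10.5% of all 13911 probe sets tested were lower and higher. At an unadjusted p under 0.05, 47 members passed, again with no share of all probe sets beside it. With no filter, over all 107, 27 were lower and 1 was higher, where 1116 and 1101 of all 22746 probe sets were. The median log2 difference was -0.32 over the 90 and -0.17 over all 107 with the floor, against 0.0016 over all probe sets tested. The changes were small, and 11 of the 36 were at least 2-fold. Those include 246972_s_at, at -2.38 (-1.74 with the floor), which passed the filter through Uninduced alone.

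AT1G09750 had 1386 and 1905 in Protoplast_induced and 3556 and 3810.0 in Uninduced, a log2 difference of -1.18 ± 0.15 (SE; adjusted p = 0.000233). AT5G45480 had 167 and 152 against 339 and 375, a difference of -1.16 ± 0.19 (SE; adjusted p = 0.0011). JKD had 53.1 and 94.4 against 133 and 195 and a difference of -1.18 ± 0.33 (SE; adjusted p = 0.0253). Arrays of the groups did not overlap for these 3 genes. AT4G25780 and AT1G71695 fell by less, at -0.88 ± 0.23 (SE; adjusted p = 0.0171) and -0.88 ± 0.11 (SE; adjusted p = 0.000164). The 2 members that were higher are AT4G10060, with 1540.4 and 1556 against 1019 and 939 and a difference of 0.66 ± 0.12 (SE; adjusted p = 0.00274), and AT5G60800, at 0.59 ± 0.17 (SE; adjusted p = 0.0298). CYP71B22, ALDH3F1, GSTU27, EEL and CLE27 had -0.18, 0.19, 0.13, 0.45 and -0.62 and did not pass, nor did AT5G44630, at 0.08. CHX20 and AT4G10910 were not tested, with means of 35.2 and 32.4 in Protoplast_induced.

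Without Protoplast_induced 1, the median log2 difference over 90 members was -0.32, and the calls of JKD and AT4G25780 ended, at -0.77 and -0.61. The call of JKD also ended without Uninduced 2 (-0.91), that of AT4G25780 without Uninduced 1 (-0.75), and that of AT5G60800 without Protoplast_induced 2 or Uninduced 1 (0.397 and 0.46). A single fit of all 15 arrays called 3 members, all lower. Calls fell over all probe sets too, to 274 lower and 453 higher of 15436 tested. The main fit had 1589 lower and 1463 higher of 13911. The actin 3'/5' ratio was higher on the Protoplast_induced arrays (log2 3.36 and 3.43) than on the Uninduced arrays (2.75 and 2.44), and its part in the result was not tested. Centring each array on its median turned the split of calls over all probe sets from 47.9% to 34.1% higher in Protoplast_induced, and left 1 member higher and 39 lower. Of the 36 members that were lower, 30 (83.3%) were also higher in CLV3n than in CLV3p, which is 39.0% of the 77. Of all 90 tested, 71 (78.9%) were higher in CLV3n, so that the share was near that of the members at large.

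**Figure D4:**
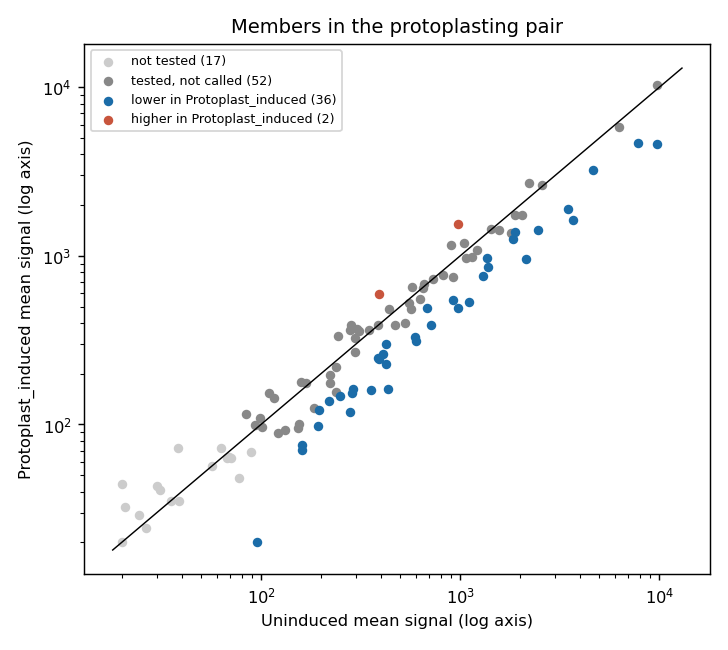
Mean signal of the 107 members in Protoplast_induced against that in Uninduced, both raised to 20 where lower and on log axes, with the line of equal signal. Of the 107, 36 were lower, 2 higher, 52 not called and 17 not tested. Most called points lie a short way under the line.

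The FILp level was last set beside that of Uninduced, as a description, since the rule chose members for a high FILp signal and the materials were prepared differently. FILp was the highest of the 6 groups for 74 members, Uninduced for 22 and Protoplast_induced for 11. FILp was at least 2-fold above Uninduced for 41 members (38.3%, where 5.13% of all probe sets were, and 6.35% of the 12323 with every FILp array at 100 or more). It was at least 2-fold below Uninduced for 9 of the 107, a share near the 7.23% of all probe sets that were. The median log2 difference was 0.69. AT4G10910 had 29.9 and 14.4 in Uninduced, where it did not pass the filter, so that its difference of 3.57 depends on the floor. The unnamed 251394_at had a difference of 3.299, with 2221, 2116 and 2125 in FILp, 295, 506 and 389.7 in CLV3n and 205 and 233 in Uninduced. AT1G64490, AT1G71870, CHX20 and AT1G32860 had 2.46, 2.15, 1.96 and 1.85.

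The opposite end holds the 9 members that were at least 2-fold stronger in Uninduced than in FILp. The unnamed 265560_at had 9484 and 10103 in Uninduced and 4460.3 and 4823 in Protoplast_induced, against 1014, 1074 and 770.3 in FILp, 129, 235 and 206 in CLV3n, 25.9, 17.8 and 11.3 in CLV3p and 171 and 189 in WUSp. It peaked in FILp only among the sorted cells. AT5G45950 and AT1G71695 had log2 differences of -1.42 and -1.07 between FILp and Uninduced. Both were also above the FILp level in Protoplast_induced, with means of 747 and 1886 against 342 and 1646. The left-out genes YAB3 and YAB5 had 223 and 134 in Uninduced, under their FILp means.

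**Figure D5:**
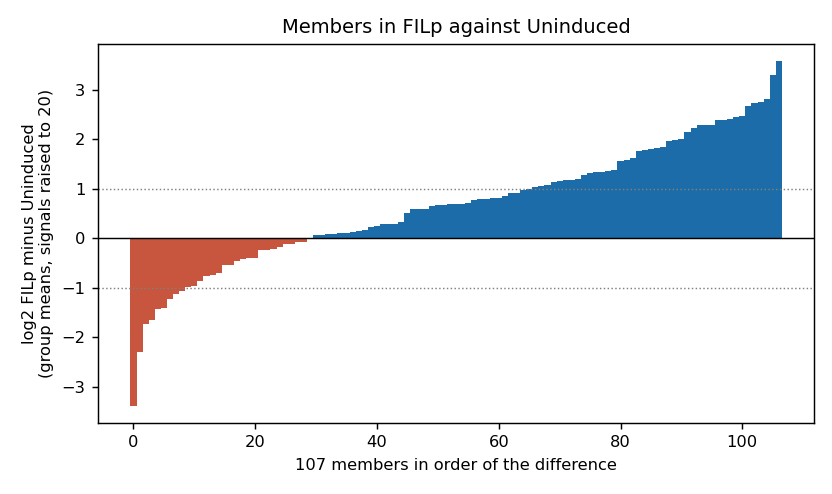
Log2 difference of group means between FILp and Uninduced for the 107 members, in order of size, with signals raised to 20. Dotted lines mark 2-fold, which 41 members exceeded upwards and 9 downwards. The members were chosen for a high FILp signal, so that the direction is a description.

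The gene lists made for this tissue hold 202 entries, against 13513 probe sets with 1 gene. They were chosen with earlier results of these data known. The list counts below, and the shares of all probe sets beside them, are therefore a description. By that share, few of the 42 members with 1 gene would fall in them. Of 14 lists, 13 held no member, which is therefore not read as a lack. Another 63 members have no gene in the probe table that a list could name. The auxin list has 19 genes with a probe set, and the lists of organ initiation and boundary, of polarity and of floral identity have 11, 4 and 4, among which only the left-out YAB3, YAB5 and ROXY1 reached 2-fold. The list of terpene synthase and cytochrome P450 genes has 22 genes, of which CYP71B22 was a member. Of the 8 tested in it, 6 were higher in CLV3n than in CLV3p and none lower. The organ initiation and boundary list had 4 of 6 tested higher in CLV3n than in CLV3p and none lower, the auxin list 8 of 13 higher and 1 lower, and the nuclear photosynthesis list 8 of 11 higher and none lower. Over all probe sets tested 8.95% were higher and 4.88% lower. Between CLV3n and WUSp the nuclear photosynthesis list had 0 of 11 higher in CLV3n and 1 lower. The auxin list had 9 of 13 higher and 1 lower there. The organ initiation and boundary list had 4 of 6 higher, the terpene synthase and cytochrome P450 list 3 of 8, and both 0 lower. Over all probe sets 10.8% were higher and 8.33% lower. In the protoplasting pair none of 13 auxin genes passed, while 10 of 15 wound and touch response genes were higher in Protoplast_induced, with a median log2 difference of 3.33. No member belongs to that list, but with 26 genes it is too small for this to be read as a lack.

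A few members with 1 gene lie close together in the genome, and how often other genes do so was not counted. By the order of protein-coding genes in the RefSeq annotation, AT1G71691 and AT1G71695 have 1 such gene between them, and AT5G45480 and AT5G45510 have 2. AT1G71691 had 572, 502 and 442 in FILp and 209.8, 180.4 and 189 in CLV3n, and AT1G71695 had 1351, 1712 and 1930.0 and 672, 706 and 439.9. Both were lower in Protoplast_induced, at -0.84 ± 0.21 (SE; adjusted p = 0.0135) for AT1G71691 and the value above for AT1G71695. Both were also higher in CLV3n than in WUSp. Between WUSp and CLV3p, AT1G71691 was lower in WUSp, while AT1G71695 had -0.03 ± 0.31 (SE; adjusted p = 0.959) and did not pass. AT5G45510 had 2258, 1939 and 2828 in FILp, 675, 632 and 1113 in CLV3n and 914, 631 and 1214 in CLV3p, with CLV3n and CLV3p overlapping. AT5G45480 had 574, 473 and 563 in FILp, 236, 277 and 237 in CLV3n and 175, 184 and 183 in CLV3p. Neither difference between CLV3n and CLV3p passed, at -0.19 ± 0.26 (SE; adjusted p = 0.706) and 0.47 ± 0.20 (SE; adjusted p = 0.135), and both were lower in Protoplast_induced, AT5G45510 at -0.44 ± 0.12 (SE; adjusted p = 0.0177).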

How the data were processed

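Total RNA was labelled with biotin and hybridised to 1 Affymetrix array per sample, per the labels' protocols. The deposited values are MAS5 signals, an intensity on a linear scale (MAS5 is named without a version in the submitters' processing notes). The trimmed mean of these intensity values lay between 499.81 and 499.84 on all arrays, so the authors had scaled them alike. Precision is limited by how few arrays each group has.

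The members and gene lists were chosen with earlier results of these data known. Genes were named from the probe table (13513 probe sets with 1 gene, 503 with several and 8730 with none), with symbols updated through RefSeq for 13436. A probe set was tested if its signal passed the 40th percentile of the array on 2 or more arrays. Two-sided tests on log2 signals used limma 3.58.1 (R 4.3.3), whose eBayes step was robust with a trend. The p-values were adjusted over all tested probe sets by Benjamini and Hochberg's method. The 11 arrays of sorted cells shared 1 fit and the protoplasting pair had its own. The code was tested on simulated data. Named genes are those with the largest FILp ratio, the highest FILp signal, list membership, the largest called differences with arrays apart, or neighbouring loci; the probe sets without a gene, EEL, GSTU27, CLE27, CHX20 and a few other genes outside this rule were named after their values were seen. Sequences and promoter motifs were not analysed here.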

Additional observations from a re-analysis of the deposited data

How the results depend on the processing

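The module had 107 members with a floor of 10, 102 with a floor of 40, 99 with arithmetic means, 126 and 77 with a FILp minimum of 50 and 200, 115 with centred arrays and 111 with quantile normalization. It had 294 and 34 members with a limit of 1.5 and 3 times, and 221 with only the arrays of low bioC signal, where WUSp sets no limit, of which 85 were among the 107. Leaving out 1 array gave 101 to 133 members. Without CLV3n 1 and CLV3p 1, an alternative chosen after seeing the data, there were 109, of which 95 were shared.

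Called members numbered 77 for CLV3n against CLV3p (59 to 79 over 12 alternatives, 70 to 77 leaving out 1 array), 48 for CLV3n against WUSp (37 to 52, and 37 to 46) and 43 for WUSp against CLV3p (33 to 52, and 36 to 49). For the protoplasting pair there were 38 (3 with all 15 arrays in 1 fit, otherwise up to 41 over 9 alternatives, and 24 to 34 leaving out 1 array), and the cause of the fall to 3 was not tested. Of the 26 named differences, 9 lost their call under some alternative, and no sign turned.

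The replicate numbers did not pair the samples throughout. Deviations from the group means correlated at 0.35, 0.04 and 0.35 for the equal numbers of CLV3n and CLV3p, where each array was closest to its own number, and at no more than 0.08 for FILp with the others. With the replicate number as a block the counts were 77, 49, 43 and 40 in the order above. Many signals outside FILp lie near background, which limits the low members.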
